A study of Mus musculus with 4 samples.

Results

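A group of 10 genes of steroid oxidation and reduction were followed in the small intestine of Cyp3a-/- mice, which lack a cluster of drug- and steroid-oxidising cytochrome P450 genes, and of wild-type mice. The 10 genes were taken by name: Hsd11b1 and Hsd11b2, 5 of the Hsd17b series (Hsd17b2, Hsd17b4, Hsd17b6, Hsd17b11 and Hsd17b13), Hsd3b2 and Hsd3b3, and Srd5a1. They were picked by name and function, with no threshold on a measured value, but with earlier results of these data known. All 10 had a probe, and 9 of them were among the 14395 genes that could be tested. Each genotype was read on 2 Agilent arrays that carry a single dye, from total RNA, and the experiments were done on different animals, per the series' design text. Strain, age, sex and the stretch of intestine taken are not given in the sources used here. Nor do they say if 1 animal or a pool supplied each array.

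Steroid dehydrogenases move hydrogen on and off the steroid ring, which turns a hormone on or off without changing its carbon skeleton. Most belong to the short-chain dehydrogenase superfamily, and the direction of each enzyme is set largely by its cofactor. In the gut wall such enzymes oxidise oestradiol and testosterone to their weaker ketone forms and interconvert active and inactive corticosteroids. The Cyp3a enzymes hydroxylate many of the same steroids, and several enzymes of both kinds are abundant in the absorptive cells of the villus. Several relatives with dehydrogenase names act mainly on lipids, as described with each gene.

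Each level is a log2 signal with the array's own 75th percentile subtracted, so a level of 0 lies at that percentile. The brightest probe of each gene was used, and levels of different genes cannot be ranked because each probe binds with its own strength. Differences are knockout minus wild type on the log2 scale, with limma's standard error (SE) and n = 2 arrays per genotype. Between 55.1% and 64.4% of probes were well above background on an array, no probe was saturated, and the small number of arrays sets how precise any value can be. Cyp3a11, a gene of the deleted cluster, had levels of -5.77 and -4.52 in knockout 1 and 2, against 5.05 and 5.78 in wild type 1 and 2. On neither knockout array was its probe well above background, so its signal was at least 920-fold lower (limma's adjusted p = 0.00236). That bound sets each knockout array at the weakest signal still well above background there, or at the probe's own where that was higher. When either wild-type array was left out, this call was lost, as was every other. Over all tested genes the arrays did not stand equally close. Knockout 1 had a correlation across genes of 0.948 with knockout 2 and of 0.966 and 0.962 with wild type 1 and 2, against 0.979 to 0.981 among the other 3 arrays. Genes are not independent replicates, so these are descriptions. Knockout 1 and wild type 2 shared a slide, while knockout 2 and wild type 1 each lay on a slide of their own. The result for each member is therefore also given for knockout 1 alone, for knockout 2 alone, and within the shared slide.

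The promoters of 5 members are shown because these genes had the widest gaps between the knockout arrays among those with an entry, and because 4 of them form neighbouring pairs. Each run holds the 250 bases before a gene's start in RefSeq on GRCm38.p6, read 5′ to 3′ on the minus strand, at chr10:128007612-128007861 for Hsd17b6, chr5:104021797-104022046 for Hsd17b11, chr5:103977389-103977638 for Hsd17b13, chr3:98724544-98724793 for Hsd3b2 and chr3:98763129-98763378 for Hsd3b3. Capitals mark matches to any of 6 motifs searched on both strands.
Hsd17b6: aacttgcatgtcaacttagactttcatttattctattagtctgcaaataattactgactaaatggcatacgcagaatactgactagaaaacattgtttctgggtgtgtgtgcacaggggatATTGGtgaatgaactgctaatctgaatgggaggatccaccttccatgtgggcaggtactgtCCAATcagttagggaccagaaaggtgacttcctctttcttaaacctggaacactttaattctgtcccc
Hsd17b11: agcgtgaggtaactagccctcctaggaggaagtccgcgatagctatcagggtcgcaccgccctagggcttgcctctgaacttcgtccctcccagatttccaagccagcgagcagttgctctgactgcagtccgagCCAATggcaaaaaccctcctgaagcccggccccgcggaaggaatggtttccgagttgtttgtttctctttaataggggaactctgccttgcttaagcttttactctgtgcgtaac
Hsd17b13: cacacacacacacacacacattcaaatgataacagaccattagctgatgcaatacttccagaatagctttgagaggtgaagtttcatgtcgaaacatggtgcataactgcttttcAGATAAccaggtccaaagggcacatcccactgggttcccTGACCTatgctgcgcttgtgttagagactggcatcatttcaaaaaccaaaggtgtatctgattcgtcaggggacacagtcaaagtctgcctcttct
Hsd3b2: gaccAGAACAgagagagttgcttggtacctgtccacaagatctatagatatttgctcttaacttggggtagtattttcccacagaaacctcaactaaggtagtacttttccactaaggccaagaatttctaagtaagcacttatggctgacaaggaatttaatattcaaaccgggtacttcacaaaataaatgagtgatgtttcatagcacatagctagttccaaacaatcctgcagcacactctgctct
Hsd3b3: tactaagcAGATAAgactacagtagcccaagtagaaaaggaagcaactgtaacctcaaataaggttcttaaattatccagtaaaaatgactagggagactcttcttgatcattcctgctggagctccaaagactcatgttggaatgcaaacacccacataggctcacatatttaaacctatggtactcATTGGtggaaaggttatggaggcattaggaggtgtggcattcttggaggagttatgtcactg
The motifs were TATAAA at which general transcription factors gather, the promoter element CCAAT, the letters AGATAA read by GATA factors, the nuclear receptor half-site AGGTCA, the glucocorticoid receptor half-site AGAACA, and CAAAGTCCA of the receptor HNF4A. No match overlapped another. Hsd17b6 held CCAAT at 129 bases before the start, on the opposite strand, and again at 68 bases. Hsd17b11 held it at 115 bases and Hsd3b3 at 62 bases, the second of these on the opposite strand. AGATAA lay 135 bases before the start of Hsd17b13 and 242 bases before that of Hsd3b3. Hsd17b13 also held AGGTCA on the opposite strand at 96 bases, and Hsd3b2 held AGAACA at 246 bases. Of 32851 mouse promoters of the same length, 33.8% held CCAAT, 9.99% AGATAA, 14% AGGTCA and 16.1% AGAACA. The motif TATAAA was in 12.4% and CAAAGTCCA in 0.384% of them, and neither was found in the 5 windows printed. No motif was common to all 5. These letters are matches only and say nothing about binding. Hsd3b3 has a second annotated start whose window was 98.8% identical to the one printed. A second annotated start of Hsd17b6, not printed, had 3 matches in its window, all to CCAAT. The windows of the neighbours Hsd3b2 and Hsd3b3 shared 51.4% of aligned bases and those of Hsd17b11 and Hsd17b13 shared 47.2%.

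No member passed the test for a difference between genotypes. Limma's adjusted p over all 14395 genes was 1 for each of the 9 tested members, and their unadjusted p lay between 0.366 for Hsd17b13 and 0.827 for Hsd17b11. Among all tested genes 0% passed as higher in the knockout and 0.0417% as lower, which were 6 genes of the Cyp3a cluster. Cyp3a13, of the same family, had levels of -0.53 and -2.57 in knockout 1 and 2, against 4.67 and 4.98 in wild type 1 and 2. Even that difference of -6.37 (SE 0.64) did not pass, with an adjusted p from limma of 0.105. Before adjustment, 24 higher (0.167%) and 39 lower (0.271%) of all tested genes had a p under 0.05 in that limma fit, none of them a member. So few genes of any kind reached that level that the absence of members among them says little about the members. The widest spread was that between the knockout arrays. In 7 of 9 members (77.8%) knockout 1 lay above and knockout 2 below both wild-type arrays, a pattern held by 16.3% of all tested genes. In 0 of 9 were both knockout arrays above both wild-type arrays, against 8.66% of all genes, and in 0 of 9 were both below, against 6.09%. The 9 values come from the same 4 arrays, so they are not 9 independent observations. The members were also chosen with earlier results of these data known, so these shares are descriptions only. The panels of levels by array show the pattern gene by gene.

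**Figure D1:**
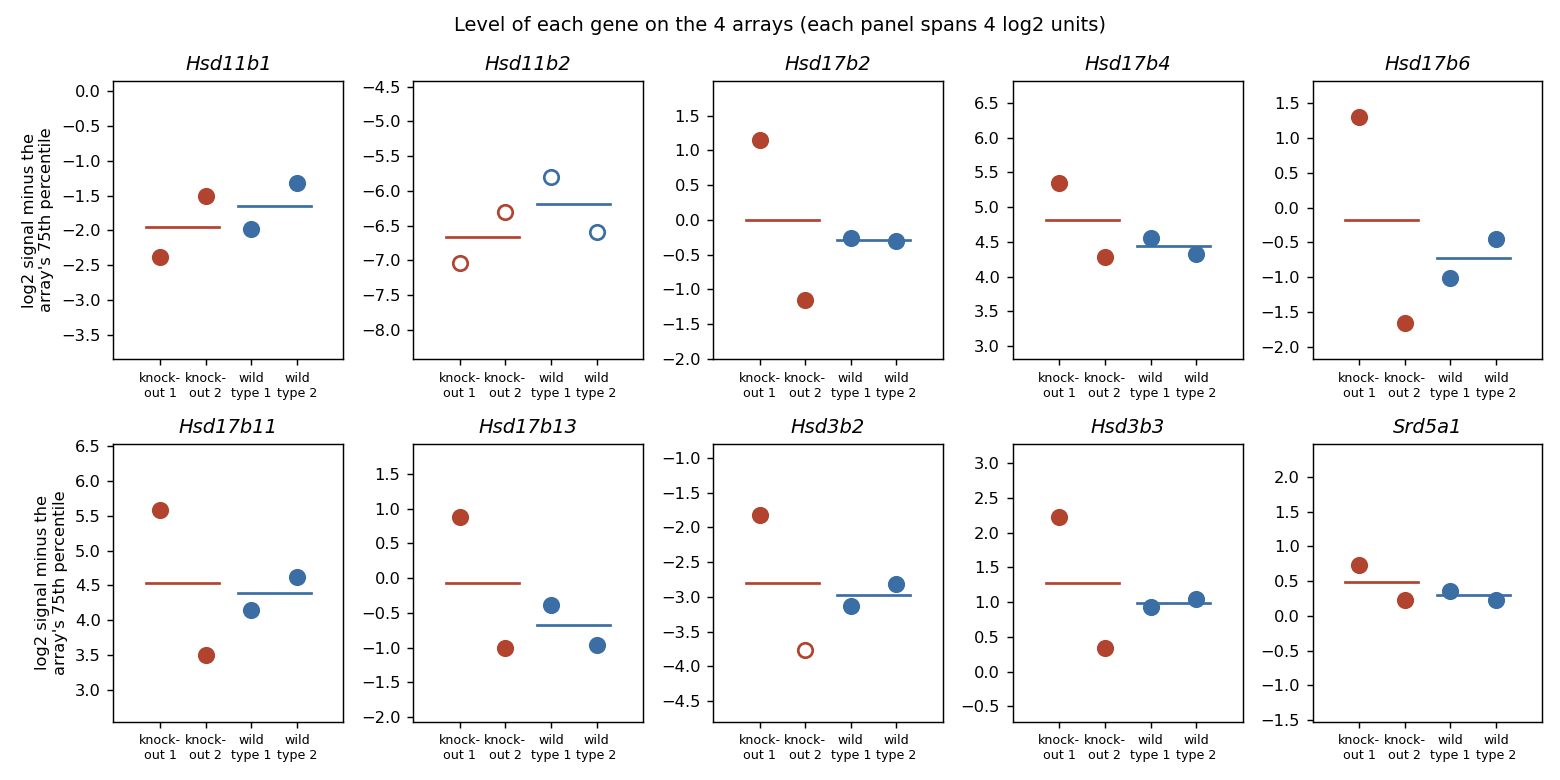
Level of each of the 10 genes (log2 signal minus the array's 75th percentile) on knockout 1 and 2 (red) and wild type 1 and 2 (blue); lines are genotype means, open circles mark arrays where the probe was not well above background, and each panel spans 4 log2 units. Knockout 1 is the highest array in 8 of the 9 tested genes, with Hsd11b1 the exception, and Hsd17b6 has the widest range at 2.96.

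The first pair handles glucocorticoids. Hsd11b1 encodes the reductase of the endoplasmic reticulum that regenerates active corticosterone from its inactive keto form. Its levels were -2.39 and -1.51 in knockout 1 and 2, against -1.98 and -1.31 in wild type 1 and 2. The genotypes overlapped, and Hsd11b1 was the one tested member in which knockout 1 was the lowest array. The difference was -0.30 (SE 0.44, 95% interval -1.37 to 0.77), or a ratio of 0.811 with an interval of 0.387 to 1.70. Knockout 1 stood at -0.74 from the wild-type mean and knockout 2 at 0.14, and within the shared slide the difference was -1.08. Hsd11b2 encodes the opposing oxidase, which inactivates corticosterone and so shields the mineralocorticoid receptor in aldosterone-responsive epithelia. Its single probe was not well above background on any array, with processed signals of 2.47 and 2.22 in knockout 1 and 2, against 4.03 and 3.71 in wild type 1 and 2. It was therefore not tested and no fold is given. H6pd, which supplies the cofactor for the Hsd11b1 reductase and is named here after its values were seen, had levels of 0.86 and 0.94 in knockout 1 and 2, against 0.94 and 0.84 in wild type 1 and 2.

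Hsd17b2 and Hsd17b6 encode oxidising enzymes. Hsd17b2 turns oestradiol into oestrone and testosterone into androstenedione, and is well known from the gut epithelium. Its levels were 1.15 and -1.16 in knockout 1 and 2, against -0.27 and -0.31 in wild type 1 and 2. The wild-type arrays were 0.04 apart, while the knockout arrays lay on either side of them with a 4.96-fold gap. The difference of means was 0.29 (SE 0.71, 95% interval -1.44 to 2.01). Set against the wild-type mean, knockout 1 was 1.44 above and knockout 2 was lower at -0.87, and within the shared slide the difference was 1.46. Hsd17b6 encodes an enzyme that oxidises androgen metabolites and is closely related to retinol dehydrogenases. Its levels were 1.30 and -1.66 in knockout 1 and 2, against -1.01 and -0.45 in wild type 1 and 2. This was the widest spread of any member, with a 7.78-fold gap between the knockout arrays. Mean levels were -0.18 ± 2.09 in the knockout and -0.73 ± 0.40 in wild type (SD, n = 2 each), and the difference was 0.55 (SE 0.90, 95% interval -1.64 to 2.74). Knockout 1 differed from the wild-type mean by 2.03 and knockout 2 by -0.93, and the difference within the shared slide was 1.75.

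The genes whose array profile lay nearest to that of Hsd17b6 were found by Euclidean distance over the 4 arrays, after centring each gene on its own mean. Ces2b, a carboxylesterase, was nearest at a distance of 0.10. Its levels were 7.38 and 4.45 in knockout 1 and 2, against 5.16 and 5.76 in wild type 1 and 2. Slc5a4b, of the sodium-glucose transporter family, followed at 0.20 and Rundc3b at 0.24. Slc5a4b and Rundc3b were well above background on 3 of the 4 arrays, the exception being knockout 2. Their levels there, -4.72 and -4.57, lay under that array's weakest well-above-background level of -4.02. Their likeness to Hsd17b6 thus rests in part on values near the detection limit. With 4 arrays this is a description of shape only.

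Hsd17b11 and Hsd17b13 encode relatives that sit on lipid droplets, and Hsd17b13 is best known from liver. The genes are direct neighbours on chromosome 5, with 573 protein-coding genes between Hsd17b11 and the Cyp3a cluster on the same chromosome. Hsd17b11 had levels of 5.58 and 3.49 in knockout 1 and 2, against 4.14 and 4.63 in wild type 1 and 2. Again knockout 1 was highest and knockout 2 lowest, a 4.26-fold gap. The difference of means was 0.15 (SE 0.67, 95% interval -1.48 to 1.79), made of 1.20 for knockout 1 and -0.89 for knockout 2, and it was 0.96 within the shared slide. Hsd17b13 had levels of 0.88 and -1.01 in knockout 1 and 2, against -0.39 and -0.96 in wild type 1 and 2. Knockout 2 lay just below wild type 2 here, so the pattern rests on a narrow margin. Its difference of 0.61 was the highest among the members (SE 0.62, 95% interval -0.91 to 2.12), with 1.55 for knockout 1, -0.33 for knockout 2 and 1.83 within the shared slide. A second Hsd17b13 probe, designed to another transcript record, read -0.92 and -3.53 in knockout 1 and 2, against -3.75 and -1.90 in wild type 1 and 2. On that probe the wild-type arrays stood in the opposite order and knockout 2 no longer lay below both, while the difference of means was 0.60.

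Hsd17b4 encodes the peroxisomal multifunctional enzyme that shortens very-long-chain and branched fatty acids and bile acid intermediates. Its levels were 5.35 and 4.28 in knockout 1 and 2, against 4.56 and 4.32 in wild type 1 and 2. Knockout 1 stood apart, and knockout 2 at 4.28 lay just under wild type 2 at 4.32. The difference was 0.37 (SE 0.42, 95% interval -0.65 to 1.40), with 0.91 for knockout 1, -0.16 for knockout 2 and 1.03 within the shared slide.

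Hsd3b2 and Hsd3b3 belong to the dehydrogenase-isomerases that make progesterone from pregnenolone, and they lie side by side on chromosome 3. Hsd3b2 had levels of -1.83 and -3.77 in knockout 1 and 2, against -3.13 and -2.82 in wild type 1 and 2. Its probe was well above background on 3 of the 4 arrays, the exception being knockout 2, so the knockout 2 level is near the detection limit. The difference was 0.17 (SE 0.66, 95% interval -1.44 to 1.78). A second Hsd3b2 probe was also not well above background in knockout 2, and read -2.63 and -4.68 in knockout 1 and 2, against -3.81 and -3.74 in wild type 1 and 2. Hsd3b3 had levels of 2.23 and 0.33 in knockout 1 and 2, against 0.93 and 1.04 in wild type 1 and 2. The wild-type arrays were close together, and the knockout arrays differed by 3.71-fold around them. Its difference was 0.29 (SE 0.60, 95% interval -1.16 to 1.75). Knockout 1 was above the wild-type mean by 1.14 for Hsd3b2 and by 1.24 for Hsd3b3, while knockout 2 differed from it by -0.79 and -0.65. Within the shared slide the differences were 0.99 for Hsd3b2 and 1.18 for Hsd3b3. Members of this family resemble each other in sequence, and signal shared between their probes was not tested.

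Srd5a1 encodes the steroid reductase that makes dihydrotestosterone from testosterone and also reduces progesterone and corticosterone. Its levels were 0.73 and 0.23 in knockout 1 and 2, against 0.36 and 0.22 in wild type 1 and 2. It was the steadiest member, with a range of 0.51 over the arrays. Mean levels were 0.48 ± 0.35 in the knockout and 0.29 ± 0.10 in wild type (SD, n = 2 each), a difference of 0.19 (SE 0.30, 95% interval -0.54 to 0.91). Its interval of 0.689 to 1.89 as a ratio was the narrowest of the 9 and does not include a 2-fold difference in either direction. For Hsd17b6, in contrast, the interval ran from 0.320 to 6.67.

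**Figure D2:**
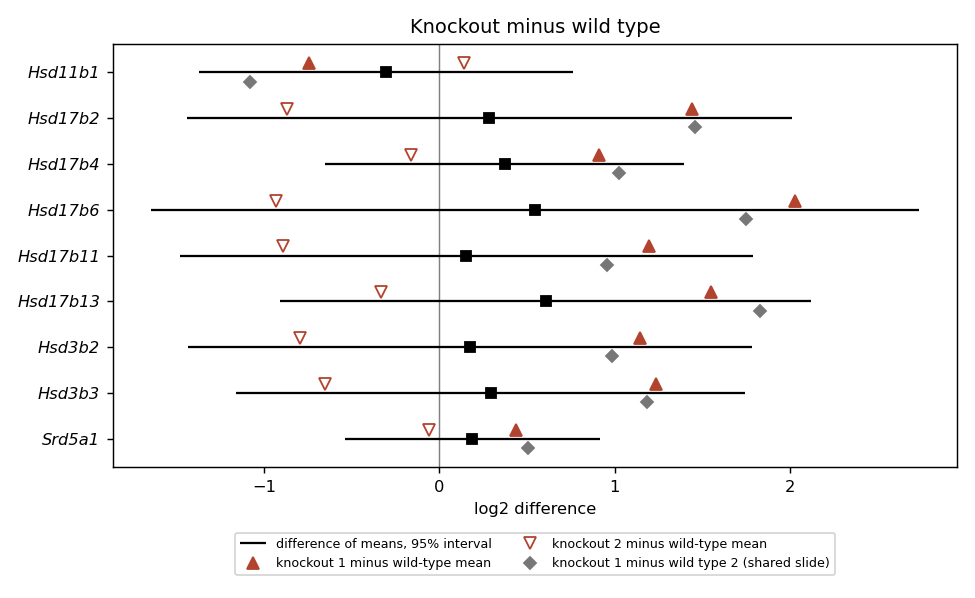
Knockout minus wild type (log2) for the 9 tested genes: black squares with bars are the difference of means and its 95% interval from limma, filled and open triangles are knockout 1 and knockout 2 minus the wild-type mean, and grey diamonds are knockout 1 minus wild type 2 within the shared slide. Every interval includes 0, and in each gene the knockout arrays lie on opposite sides of 0.

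Over the 9 tested members the median difference was 0.29, with 8 of 9 above 0. Over all tested genes the median was 0.04 and 56.2% were above 0. When levels were set against enterocyte markers, 5 of those 8 members turned below 0. That scaling lowers the difference of every gene alike, and put the median at -0.06 for the members and -0.31 for all tested genes. Without that scaling the members' median was 1.20 for knockout 1 alone, -0.65 for knockout 2 alone and 1.03 within the shared slide. The gap between the knockout arrays was larger than that between the wild-type arrays in 9 of 9 members, as it was in 63.2% of all genes. Without knockout 2, limma called 4 of 9 members higher, against 0.938% of all genes, on the assumption that the lone knockout array varies like the wild-type ones. These were Hsd17b2 (1.44, adjusted p = 0.0235), Hsd17b6 (2.03, adjusted p = 0.00534), Hsd17b13 (1.55, adjusted p = 0.0247) and Hsd3b3 (1.24, adjusted p = 0.0490). Without knockout 1 none passed, and all 9 differences changed sign. Hsd17b2, Hsd17b6 and Hsd17b11 then stood at -0.87, -0.93 and -0.89, with unadjusted p from the same fit of 0.0181, 0.0207 and 0.0371 and an adjusted p of 1. The direction of every member thus depended on which knockout array was kept.

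Markers of the cells in the gut wall moved with this pattern. All 18 markers of absorptive enterocytes, such as the brush-border enzymes Alpi, Sis and Lct, were tested. In 12 of 18 (66.7%), Alpi among them, knockout 1 also lay above and knockout 2 below both wild-type arrays, against 16.3% of all tested genes. For Sis and Lct, knockout 2 lay between the wild-type arrays. Levels of all 18 were summed on a linear scale with 1 at the 75th percentile. They came to 1856 in knockout 1 and 1018 in knockout 2, against 1417 in wild type 1 and 932.6 in wild type 2. The 10 smooth muscle markers, such as Myh11 and Des, ran the other way. In 9 of 10 knockout 2 lay above and knockout 1 below both wild-type arrays, as in 2384 of all 14395 tested genes. Levels of the 10 summed to 110.3 and 329.6 in knockout 1 and 2, against 193.2 and 219.9 in wild type 1 and 2. None of the defining markers in either list was below the detection filter. In bulk tissue, fewer cells of a type and less RNA per cell cannot be told apart.

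When each level was set against the median enterocyte marker of its array, a scale chosen after the data were seen, the gap of knockout 1 over knockout 2 shifted by -1.28 for every gene alike. The remaining gap was 1.68 for Hsd17b6, 1.03 for Hsd17b2, 0.81 for Hsd17b11, 0.66 for Hsd3b2, 0.61 for Hsd17b13 and 0.61 for Hsd3b3. It was -0.21 for Hsd17b4, -0.78 for Srd5a1 and -2.16 for Hsd11b1. On that scale 1 of 9 members, Hsd17b2, had knockout 1 above and knockout 2 below both wild-type arrays, against 0.514% of all tested genes. The part of tissue makeup in the differences was not tested.

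**Figure D3:**
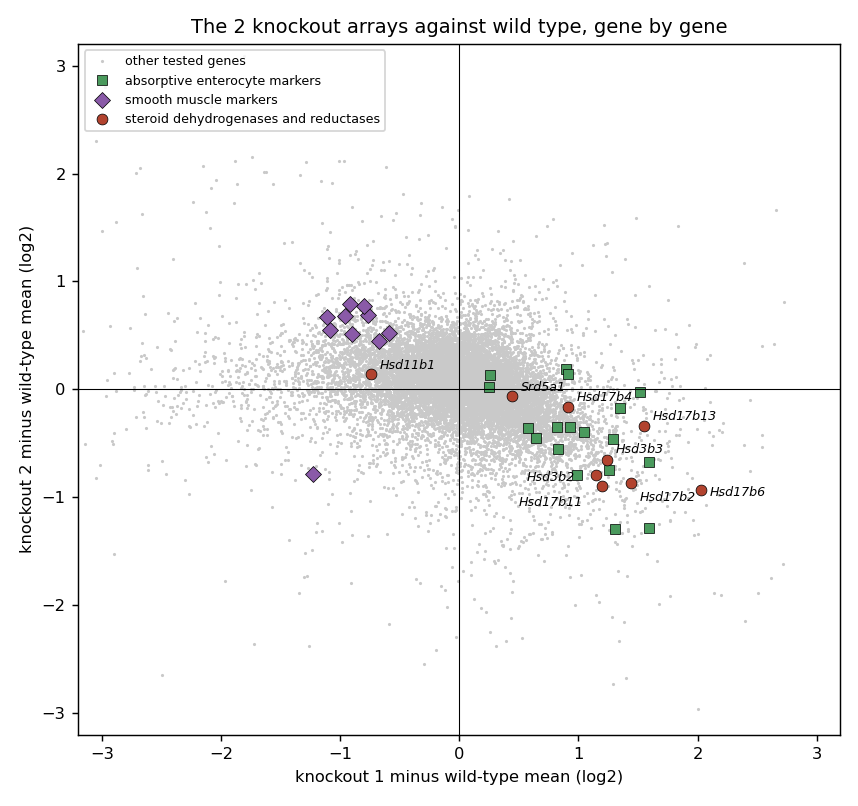
Each point is a gene, placed by knockout 1 minus the wild-type mean (x axis, log2) and knockout 2 minus the same mean (y axis, log2), for the 9 tested steroid genes (red circles), enterocyte markers (green squares), smooth muscle markers (purple diamonds) and all other tested genes (grey), of which 43 lie outside the plotted range. All steroid genes but Hsd11b1 lie right of and below 0, among the enterocyte markers, and Hsd11b1 lies on the side of the smooth muscle markers.

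Other cell types and positions along the gut were read the same way, as medians of each list's differences from the wild-type mean. Goblet cell markers stood at 0.91 in knockout 1 and 0.00 in knockout 2, and crypt markers at -0.49 and 0.09. Fibroblast markers stood at -0.58 and 0.25, and markers of enteric neurons and glia at -0.84 and -0.13. Adipocyte markers stood at -0.60 and 0.92, with 6 of 8 tested and Plin1 and Lep not above background on enough arrays. In 4 of the 6 knockout 2 lay above and knockout 1 below both wild-type arrays, while the other 2, Lipe and Cidec, had the reverse. In knockout 1, Adipoq at -6.47 and Cfd at -5.94 lay under that array's weakest well-above-background level of -4.84. Markers of the proximal small intestine stood at 0.63 and -0.35, and that list shares Fabp1 and Lct with the enterocyte list. Markers of the distal part stood at 1.52 and -0.39 with 5 of 7 tested, and the 1.52 was the value of Slc51b. Fgf15 and Osr2 were not above background on enough arrays. Slc10a2, at -4.21 in knockout 2 and -5.08 in wild type 1, lay under those arrays' weakest well-above-background levels of -4.02 and -4.29. Leukocyte markers stood at 0.04 and -0.46. Liver markers stood at -1.67 and -0.36, but the wild-type arrays themselves were at 0.70 and -0.70. Of 8 pancreas markers 2 passed the filter. Neither sampling position nor cell makeup was recorded in the labels, so their part in the members' values was not tested. Set against the tissue label of small intestine, all 18 enterocyte markers were measured.

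The remaining enzymes of the same chemistry had a median gap of 0.60 between the knockout arrays, beside 1.89 for the members and 0.45 for all tested genes. The split between members and remaining enzymes was made with earlier results of these data known. Of 32 other steroid dehydrogenases and reductases, 18 were tested and 0 passed in either direction. Their median difference was 0.17, with 0.49 for knockout 1 and -0.10 for knockout 2, and 6 of 18 (33.3%) had knockout 1 above and knockout 2 below both wild-type arrays. Akr1c19, an aldo-keto reductase, had the smallest p of the list. Its levels were 4.33 and 3.66 in knockout 1 and 2, against 3.66 and 3.03 in wild type 1 and 2. Each knockout array exceeded both wild-type arrays, though knockout 2 and wild type 1 were both at 3.66 after rounding, with a difference of 0.65 (SE 0.37, limma's adjusted p = 1). Akr1c14, which reduces ketosteroids, also had both knockout arrays higher, at -0.64 and -1.03 against -1.14 and -1.14 in wild type, a difference of 0.30 (SE 0.30). Akr1c13 stood at 0.43 (SE 0.43). Hsd17b14, well above background on 3 of the 4 arrays, was the one gene of the list with both knockout arrays lower. Its levels were -4.05 and -3.76 against -3.48 and -3.58 in wild type, a difference of -0.37 (SE 0.41). Limma's adjusted p was 1 for each. Hsd17b1, Hsd17b3, Hsd3b1 and Srd5a2, the best-known relatives from gonads, adrenal and prostate, were not above background on enough arrays.

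The corticosteroid receptors and their targets gave no call among 16 tested of 18 listed. Nr3c1, the glucocorticoid receptor, had levels of 3.55 and 2.90 in knockout 1 and 2, against 2.95 and 2.74 in wild type 1 and 2, a difference of 0.38 (SE 0.33). Nr3c2, the mineralocorticoid receptor, had levels of -1.22 and -1.46 in knockout 1 and 2, against -1.12 and -1.73 in wild type 1 and 2, a difference of 0.09 (SE 0.35). The genotypes overlapped for both receptors. Per1, a clock gene induced by glucocorticoids, had levels of 0.62 and 1.64 in knockout 1 and 2, against 0.48 and 0.21 in wild type 1 and 2. Both knockout arrays were higher, with a difference of 0.78 (SE 0.40). Hsp90aa1, a chaperone that holds the receptors, also had both knockout arrays higher, with a difference of 0.57 (SE 0.31), as did Tsc22d3, a glucocorticoid-induced gene, at 0.42 (SE 0.27). Limma's adjusted p was 1 for each. That made 3 of 16 (18.8%) with both knockout arrays above both wild-type arrays, against 8.66% of all tested genes. In 4 of 16 (25%) knockout 1 lay above and knockout 2 below both, against 16.3%. The listed targets Fkbp5, Klf9, Zbtb16 and Dusp1, named here after their values were seen, were not among the 3 with both higher. They stood at 0.09 (SE 0.29), -0.01 (SE 0.27), -0.28 (SE 0.46) and -0.23 (SE 0.38). The apical sodium-proton exchanger Slc9a3 had knockout 1 above and knockout 2 below both instead, at 5.42 and 3.09 in knockout 1 and 2, against 3.48 and 3.26 in wild type 1 and 2. Scnn1b and Scnn1g, subunits of the aldosterone-regulated sodium channel, were not above background on enough arrays.

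Steroid synthesis genes centred near 0, with a median difference of 0.01 over 13 tested of 17, and 3 of 13 (23.1%) had knockout 1 above and knockout 2 below both wild-type arrays. Cyp17a1, a lyase and hydroxylase of androgen synthesis, had levels of 3.68 and 3.92 in knockout 1 and 2, against 3.82 and 4.33 in wild type 1 and 2. The genotypes overlapped, with a difference of -0.28 (SE 0.31). Cyb5a, which encodes a partner protein of that enzyme, had levels of 6.88 and 5.12 in knockout 1 and 2, against 5.12 and 5.06 in wild type 1 and 2. The difference of 0.91 (SE 0.58) rested on knockout 1. Star, the mitochondrial cholesterol carrier, was well above background on 3 arrays and differed by -0.61 (SE 0.46), with both knockout arrays lower. Nr5a2, a nuclear receptor known to drive gut steroid synthesis, stood at 0.51 (SE 0.49). Cyp11a1, Cyp11b1, Cyp11b2 and Cyp19a1 were not above background on enough arrays.

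Among sex steroid receptors and their relatives, 6 of 9 were tested, with a median of -0.01. In 4 of 6 (66.7%) knockout 1 lay above and knockout 2 below both wild-type arrays. Esr1 and Pgr, the classic oestrogen and progesterone receptors, did not reach the filter. Pgrmc1, a membrane-bound haem protein, stood at 0.40 (SE 0.45), Esrra at 0.19 (SE 0.38), Esrrg at -0.30 (SE 0.43) and Gper1 at -0.12 (SE 0.45). The enzymes of steroid conjugation again had a wide gap between the knockout arrays, with a median of 1.15. Of 22 listed 16 were tested, 8 of 16 (50%) had knockout 1 above and knockout 2 below both wild-type arrays, and the medians were 0.79 in knockout 1 and -0.21 in knockout 2. Ugt2a3, a glucuronosyltransferase, had levels of 2.83 and 0.72 in knockout 1 and 2, against 1.38 and 1.02 in wild type 1 and 2. Ugt2b35 stood at 0.40 (SE 0.45), the sulfotransferase Sult1d1 at 0.31 (SE 0.34), and Papss1, which makes the sulfate donor, at -0.37 (SE 0.42). No gene of the 5 lists passed in either direction.

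**Figure D4:**
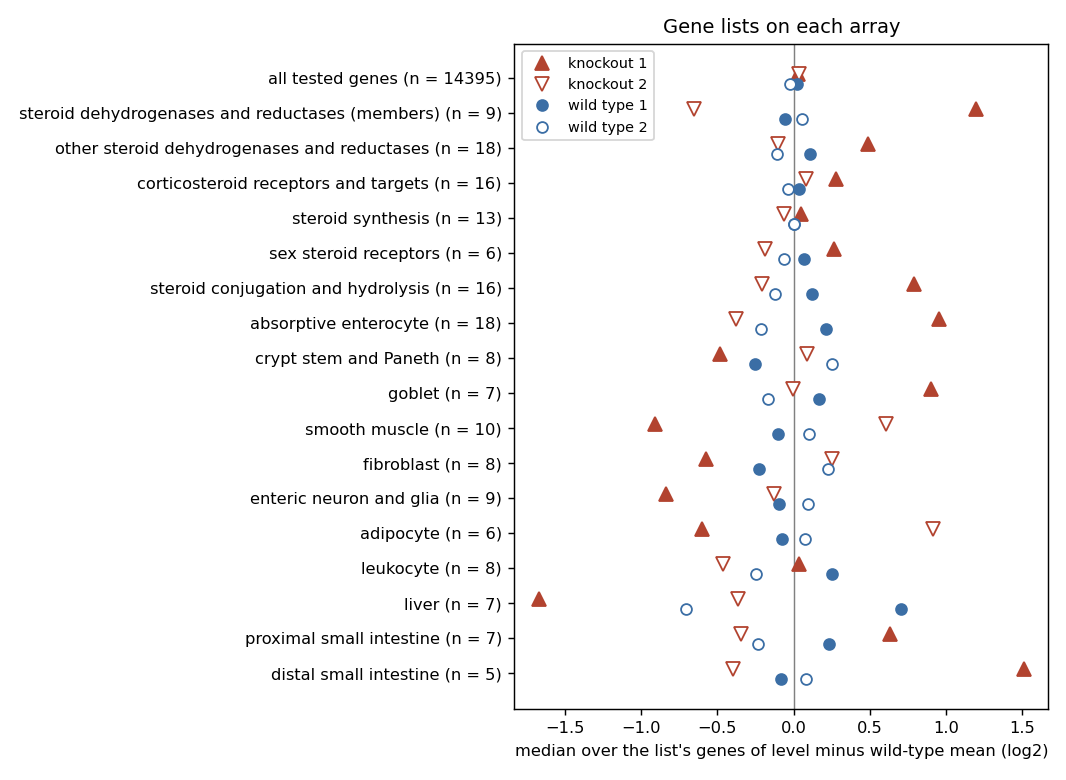
Median over each gene list of the level minus the gene's wild-type mean (x axis, log2) on knockout 1 and 2 (red triangles) and wild type 1 and 2 (blue circles), with n the number of tested genes. The 9 steroid dehydrogenases and reductases lie at 1.20 in knockout 1 and -0.65 in knockout 2, the enterocyte markers at 0.96 and -0.38, the smooth muscle markers at -0.91 and 0.61, and all tested genes at 0.03 and 0.04.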

How the data were processed

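Total RNA was labelled with Cy3 and hybridised to 1-colour Agilent mouse arrays, per the labels. Signals came from Agilent Feature Extraction 11.5.1.1, per the submitters' processing notes. The deposited spot intensity is a processed signal, background-subtracted and detrended but not scaled between arrays, per the file headers, and quality flags came from the same deposited files. The authors' value table holds log2 values. Over 39408 probes they equalled the scanner's log2 signal, scaled as below and centred on each probe's median, within 0.01, with column medians of -0.11, 0.12, 0.05 and -0.10 in knockout 1 and 2 and wild type 1 and 2. That table therefore holds differences and no levels.

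Control spots were dropped, as were 91 to 129 flagged spots on each array, and replicate spots were averaged after log2. Each array's 75th percentile was subtracted (processed signals of 322.4 and 175.2 in knockout 1 and 2, and of 225.5 and 355.6 in wild type 1 and 2). Of 39429 probes, 28025 matched 1 symbol by accession in the RefSeq table of GRCm38.p6. Probes well above background on at least 2 arrays were kept (24006), and the brightest per gene gave 14395 genes. The comparison used limma 3.58.1 in R 4.3.3 (lmFit, then eBayes with trend = TRUE) and Benjamini-Hochberg adjustment at 0.05. The files hold median, not mean, spot signals, so the planned normexp correction used those. The members and gene lists were chosen with earlier results of these data known. Named genes are all members, up to 4 genes of smallest p per pathway list, Nr3c1 and Nr3c2, and the 3 nearest profiles to the member of widest range.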

Additional observations from a re-analysis of the deposited data

How the results depend on the processing

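Of 134 recomputed member differences, 16 changed sign. The others kept their direction, and 114 of the 134 also kept their side of the threshold wherever a test was run. The 9 differences within the shared slide are among the 114 and had no test, since they set 1 array against 1. The changes of sign came from leaving out an array and from scaling on the enterocyte marker median, which was added after the data were seen. That scaling put the median of all genes at -0.31, against 0.04 in the report, with values of -0.058 for Hsd17b2, -0.19 for Hsd17b11, -0.17 for Hsd3b2, -0.05 for Hsd3b3 and -0.16 for Srd5a1, all above that median, and with 1 gene higher and 8 lower. Leaving out 1 array at a time gave 0 to 135 genes higher, 0 to 298 lower, 0 to 4 members past the threshold and a member median of -0.65 to 1.20. Both upper counts came without knockout 2; without knockout 1 they were 2 and 10, and without either wild-type array 0 and 0. Member by member those differences ran from -0.74 to 0.14 for Hsd11b1, -0.87 to 1.44 for Hsd17b2, -0.16 to 0.91 for Hsd17b4, -0.93 to 2.03 for Hsd17b6, -0.89 to 1.20 for Hsd17b11, -0.33 to 1.55 for Hsd17b13, -0.79 to 1.14 for Hsd3b2, -0.65 to 1.24 for Hsd3b3 and -0.061 to 0.44 for Srd5a1. Without wild type 1 Hsd17b11 was at -0.09, and without wild type 2 Hsd11b1 was at 0.03. Requiring probes well above background on all 4 arrays gave 0 lower genes of 13052, since transcripts lost in the knockout fail that filter. With the replicate block, 6 genes were higher and 26 lower, with 0 members. The labels share only a replicate number (correlation of same-numbered deviations 0.05), so the block is no pairing. Slide as a random block could not be estimated. The 4 arrays set the limit: members' intervals are wide, and Hsd11b2 on all arrays and Hsd3b2 in knockout 2 were not well above background.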

Other observations

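Several genes outside the naming rule, picked after their values were seen, had knockout arrays further apart than most. Sgk1, a kinase induced by aldosterone and glucocorticoids, had levels of 4.08 and 1.52 in knockout 1 and 2, against 1.52 and 2.27 in wild type 1 and 2. Knockout 2 and wild type 1 were equal there after rounding. The glucuronosyltransferase Ugt2b5 had levels of 3.64 and 1.22 in knockout 1 and 2, against 1.89 and 1.82 in wild type 1 and 2. Ugt2b37 had levels of 2.68 and 0.29 in knockout 1 and 2, against 1.14 and 1.18 in wild type 1 and 2.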
